A study of Mus musculus with 23 samples.

Results

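Mitosis genes, a set of 39 mouse genes that build and control the mitotic apparatus, were followed through 23 bulk RNA libraries of mouse lung and lung tumour. Members were chosen by symbol from a list of genes with textbook roles in mitosis, and all 39 were found among the 24411 genes of the deposited tables. The study compared lungs of mice lacking Rarres1 (KO) with wild-type (WT) lungs at 3 ages and added tumours of old KO mice. The groups were KO lungs at embryonic day 19.5 (E19.5, n = 3) and WT lungs at E19.5 (n = 3), KO lungs at 10 months (n = 3) and WT lungs at 10 months (n = 3), and, at 18 months, KO lung tumours (n = 3), KO non-tumour lungs (n = 5) and WT lungs (n = 3). All mice were of C57BL/6 background, received no treatment and lived behind a pathogen barrier; postnatal mice were male, and no sex is given for the embryos. Tumours 1, 3 and 6 carry the animal codes of KO lungs 1, 3 and 6, so they were read as sharing mice; the title of KO lung 6 numbers it 4, so its pairing with tumour 6 rests on the code alone. KO lungs 2 and 7 have no tumour partner. How the KO allele was made and whether other replicates came from separate litters are not given in the sources used here. The p-values therefore describe variation among the samples at hand, which may be technical.

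In a dividing cell the kinase Cdk1, bound to A- and B-type cyclins, starts mitosis; kinetochores then fasten chromosomes to spindle microtubules, a checkpoint holds the cell until all are attached, and the anaphase-promoting complex ends mitosis by marking cyclin B and securin for destruction. The transcripts of these proteins accumulate late in the cell cycle under the forkhead factor Foxm1 and the MYB-MuvB complex, and they are low in resting cells. For that reason they are widely used as a readout of how many cells in a tissue divide. The lung still divides around birth, and most cells of the adult lung rest.

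The 39 genes fall into 10 roles. Mki67 coats mitotic chromosomes and Top2a untangles their DNA. Cdk1, Ccna2, Ccnb1 and Ccnb2 are the kinase and cyclins of mitotic entry, and Foxm1 is the transcription factor. Plk1, Aurka and Melk are kinases of mitotic cells, of which Plk1 and Aurka act on centrosomes and spindle poles. Aurkb, Birc5 (survivin), Incenp and Cdca8 (borealin) form the chromosomal passenger complex. Bub1, Bub1b and Ttk are kinases or kinase-like proteins of the spindle checkpoint. Cenpa is the centromeric histone, Cenpe and Cenpf bind kinetochores to microtubules, and Ndc80, Nuf2 and Spc25 are subunits of the NDC80 complex. Kif11, Kif2c and Kif4 are spindle or chromosome motors, and Tpx2, Nusap1 and Hmmr bind microtubules. Prc1, Kif20a, Kif23, Racgap1, Ect2 and Anln build the midzone and the cleavage furrow; Kif23 and Racgap1 together form centralspindlin, which recruits the RhoA exchange factor Ect2. Cdc20 and Ube2c work with the anaphase-promoting complex, Espl1 (separase) cuts cohesin, and Cdca3 takes part in mitotic entry.

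Promoters of late cell cycle genes are known for a pair of short elements, the CHR (cell cycle genes homology region) and the CCAAT box. RefSeq promoters on GRCm38.p6 were matched for 33 of the 39 genes; Aurkb, Ccna2, Kif20a, Tpx2, Foxm1 and Incenp had none in the table. The 250 bases before the start were searched on both strands for CHR (TTTGAA or TTCGAA, with TTCAAA as the reverse form) and for CCAAT (with ATTGG as the reverse form), and matches were allowed to overlap. A CHR was present in 12 of the 33 (36.4%, exact 95% interval 20.4 to 54.9), against 19.6% of the 27025 genes with a promoter in the table. A CCAAT box was present in 26 of 33 (78.8%), against 37.5% of all genes. Both elements were present in 11 (33.3%), against 7.0% of all genes, and at least 2 CCAAT boxes in 18 (54.5%), against 11.5%. In the last 100 bases the shares with both were 21.2% and 1.36%. These are matches of letters, not sites shown to be used. The promoters of the 4 members with both elements and the highest FPKM (fragments per kilobase and 1e6 fragments) at E19.5 show how the elements are laid out, and Kif23, picked after its values were seen because it stood apart in tumours, is shown beside them; capitals mark CHR and CCAAT matches.
Ube2c, chr2:164769679-164769928, plus strand: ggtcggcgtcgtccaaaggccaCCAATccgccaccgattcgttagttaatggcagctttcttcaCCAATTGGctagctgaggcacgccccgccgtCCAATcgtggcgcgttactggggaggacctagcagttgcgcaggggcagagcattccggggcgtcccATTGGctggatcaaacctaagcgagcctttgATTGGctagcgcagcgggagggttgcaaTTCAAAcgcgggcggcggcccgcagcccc
Cdc20, chr4:118437344-118437593, minus strand: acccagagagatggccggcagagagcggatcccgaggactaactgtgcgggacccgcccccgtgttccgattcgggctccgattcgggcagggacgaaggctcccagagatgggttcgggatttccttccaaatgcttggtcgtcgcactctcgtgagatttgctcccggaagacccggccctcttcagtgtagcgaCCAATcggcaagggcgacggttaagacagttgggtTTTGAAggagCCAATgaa
Ccnb2, chr9:70421555-70421804, minus strand: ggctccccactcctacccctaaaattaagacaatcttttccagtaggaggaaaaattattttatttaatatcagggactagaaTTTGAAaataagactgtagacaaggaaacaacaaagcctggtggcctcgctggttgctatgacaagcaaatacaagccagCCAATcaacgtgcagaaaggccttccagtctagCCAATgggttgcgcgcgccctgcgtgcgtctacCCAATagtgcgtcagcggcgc
Top2a, chr11:99024190-99024439, minus strand: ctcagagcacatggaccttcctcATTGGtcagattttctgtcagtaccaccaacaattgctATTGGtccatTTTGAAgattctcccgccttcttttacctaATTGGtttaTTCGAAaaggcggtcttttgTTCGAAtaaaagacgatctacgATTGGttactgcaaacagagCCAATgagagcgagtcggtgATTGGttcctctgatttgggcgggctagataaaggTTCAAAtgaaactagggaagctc
Kif23, chr9:61946800-61947049, minus strand: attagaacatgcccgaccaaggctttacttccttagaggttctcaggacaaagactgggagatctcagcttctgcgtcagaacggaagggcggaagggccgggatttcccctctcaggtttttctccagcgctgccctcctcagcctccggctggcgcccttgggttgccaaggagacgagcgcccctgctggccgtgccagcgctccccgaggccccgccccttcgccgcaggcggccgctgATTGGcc
Ube2c held 1 CHR, 29 bases before the start, and 6 CCAAT boxes. Cdc20 held 1 CHR at 18 bases and 2 CCAAT boxes, and Ccnb2 held 1 CHR at 167 bases and 3 CCAAT boxes. Top2a held 4 CHR matches, the nearest at 23 bases, and 6 CCAAT boxes. The Kif23 window held 1 CCAAT box, 7 bases before the start, and no CHR letters. Most of the 33 matched members likewise held no CHR, as 12 of 33 had one, and bases after the start were not searched.

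Library totals were 23.66 to 46.57 times 1e6 counts. The lowest count of any member in a library was 9, in a KO lung at 10 months. Rarres1 had 0 or 1 count in the 14 KO libraries and 24 to 64 counts in the 9 WT libraries. Markers of alveolar type 2 cells, the surfactant-making cells that define lung tissue, were present in every library, with a mean log2(CPM + 1) of 10.8 to 13.0 (CPM, counts per 1e6 counts after TMM scaling). WT embryo 3 stood apart by markers of other tissues. Its basal and squamous marker level was 5.88 on the log2(CPM + 1) scale, against 0.647 to 0.965 in the other 5 embryos, and its skeletal muscle marker level was 6.01, against 2.84 to 4.64. The main counts and medians that use it are given with and without it.

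The mitosis genes were high before birth, low in adult lung and intermediate in tumours. The mean log2(CPM + 1) of the 39 genes in each library was 3.93, 4.2 and 3.83 in KO embryos, and 3.88, 4.39 and 4.10 in WT embryos. At 10 months it was 2.23, 1.86 and 2.17 in KO lungs, and 2.32, 2.24 and 2.11 in WT lungs. At 18 months it was 3.23, 2.60 and 2.73 in tumours 1, 3 and 6, then 2.81, 2.12, 2.31, 2.73 and 2.24 in KO lungs 1, 2, 3, 6 and 7, and 2.22, 2.12 and 1.84 in WT lungs. Every embryo lay above every tumour, and every tumour lay above every 10-month lung and every WT lung at 18 months. KO lungs 1 and 6 lay above tumour 3, so tumours and KO lungs overlapped. In bulk tissue fewer dividing cells and less RNA per cell cannot be told apart.

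**Figure D1:**
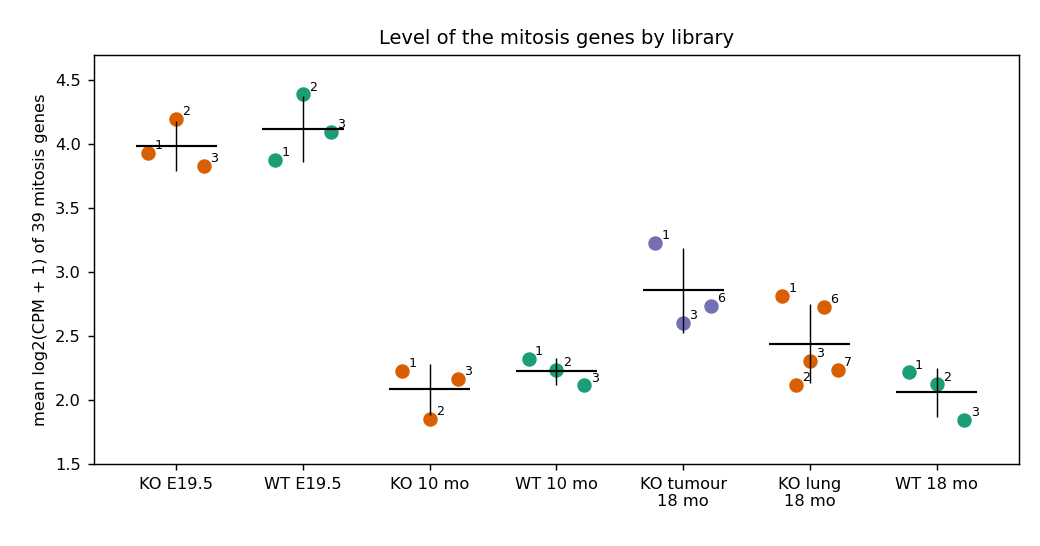
Mean log2(CPM + 1) over the 39 mitosis genes (vertical axis) for each of the 23 libraries, by group; points are libraries numbered as in the labels, lines are group means and bars are SD. Embryos sit between 3.83 and 4.39, 10-month lungs between 1.86 and 2.32, and tumours between 2.60 and 3.23.

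Members moved together from library to library within a group. WT embryo 2 was the highest of the WT embryos for 38 of 39 members and WT embryo 1 the lowest for 37. Among KO embryos, embryo 2 was the highest for 37 members and embryo 3 the lowest for 31. KO lung 2 at 10 months was the lowest of its group for 30 members, and WT lung 3 at 18 months the lowest of its group for 32. Tumour 1 was the highest tumour for 37 members and tumour 3 the lowest for 29. Among KO lungs at 18 months, lung 1 was the highest for 22 members and lung 6 for 17. The members are therefore not independent of each other: 1 library can shift nearly all of them.

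**Figure D2:**
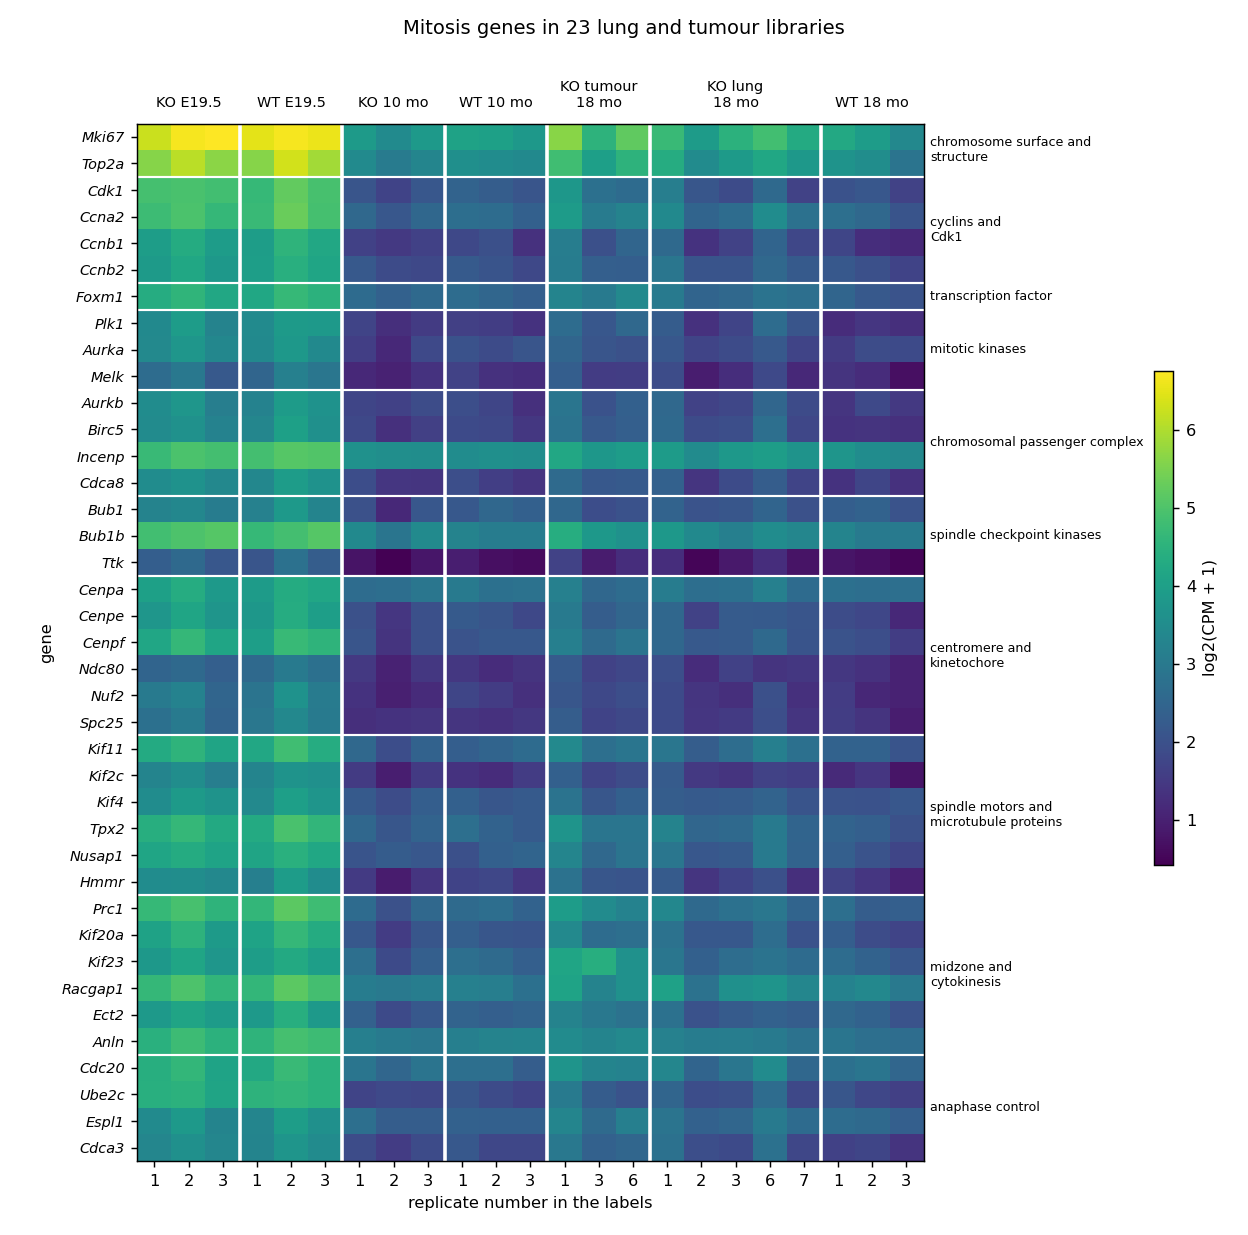
Level of each mitosis gene, log2(CPM + 1) by colour, with genes down the page by role and the 23 libraries across the page by group. Colours are not scaled by gene, so genes such as Mki67 are brighter than others throughout. Within each genotype all 39 genes are brighter in every embryo than in every 10-month lung. The same held for 33.5% of all genes tested in KO and 33.9% in WT lungs. Kif23 has its highest value of any library in tumour 3, 19.9 CPM, where only Mki67, at 21.9 CPM, was higher.

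Levels between genes were compared per length, in FPKM. In embryos Ube2c, the ubiquitin-conjugating enzyme of the anaphase-promoting complex, ranked first, with 27.4 ± 4.15 FPKM in KO lungs and 31.6 ± 1.91 FPKM in WT lungs (SD, n = 3 each). The checkpoint kinase Ttk ranked last, with 1.58 ± 0.333 FPKM in KO and 1.69 ± 0.581 FPKM in WT embryos. In adult lung the centromeric histone Cenpa had the highest mean instead: it had a mean of 4.61 FPKM in KO and 5.01 FPKM in WT lungs at 10 months, and 5.21 FPKM in KO and 4.48 FPKM in WT lungs at 18 months. In KO lungs at 18 months Ube2c, with a mean of 5.05 FPKM, did not differ from it beyond their spread and was above it in lungs 1 and 6. In tumours Ube2c again ranked first, with 6.07 ± 2.51 FPKM, and Cdc20, Birc5, Incenp and Kif23 followed with 5.79, 5.00, 4.68 and 4.68 FPKM; with 3 tumours these neighbours do not differ beyond their spread.

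All 39 mitosis genes fell between E19.5 and 10 months, in KO and in WT lungs. In KO lungs 39 of 39 were called lower at 10 months (edgeR quasi-likelihood test with Benjamini-Hochberg adjustment over all genes, adjusted p under 0.05), against 29.4% of all 15626 genes tested called lower and 60.5% called in either direction. In WT lungs 39 of 39 were called lower, against 31.2% of 15619 genes called lower and 62.8% called in either direction. The median log2 fold change of the members was −2.32 in KO lungs and −2.25 in WT lungs, which is 4.99 and 4.76 times lower. Without WT embryo 3 all 39 were still called and the WT median was −2.30.

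Cdk1, the kinase that starts mitosis, had 3.27, 2.25 and 3.39 CPM in KO lungs at 10 months, against 28.7, 29.8 and 27.5 CPM in KO embryos. Its log2 fold change was −3.27 ± 0.15 (SE, adjusted p = 1.25e-06), the largest of any member in KO lungs, and the 2 ages did not overlap. Ube2c fell by 3.00 on the log2 scale in both genotypes. It had 2.33, 2.56 and 2.44 CPM in KO lungs at 10 months, against 20.6, 21.4 and 16.4 CPM in KO embryos. In WT lungs it had 3.35, 2.68 and 2.27 CPM at 10 months, against 21.9, 23.3 and 21.1 CPM in WT embryos (adjusted p = 1.27e-06 in KO and 2.94e-07 in WT). Mki67, the source of the Ki-67 stain, had 15.95, 15.2 and 13.0 CPM in WT lungs at 10 months, against 90.02, 102 and 94.01 CPM in WT embryos; its log2 fold change of −2.70 ± 0.09 had the smallest adjusted p in WT lungs, 6.45e-08.

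Among the other members with the smallest adjusted p in KO lungs, Ccnb1 fell by 2.97 ± 0.17, Ccna2 by 2.63 ± 0.16, Nusap1 by 2.33 ± 0.12 and Foxm1 by 2.04 ± 0.14 (log2 ± SE). In WT lungs Plk1 fell by 2.72 ± 0.18, Kif20a by 2.49 ± 0.17, Bub1b by 1.86 ± 0.13 and Incenp by 1.55 ± 0.09. The smallest falls were −1.26 ± 0.22 for Espl1 in KO lungs (adjusted p = 0.00121) and −1.30 ± 0.21 for Bub1 in WT lungs (adjusted p = 0.000559). Adult lungs thus kept a median of 20.04% of the embryonic CPM in KO, from 10.4% for Cdk1 to 41.8% for Espl1, and 21.2% in WT, from 12.5% for Ube2c to 40.9% for Bub1. By role the median log2 falls in KO and WT lungs were −2.80 and −2.79 for Cdk1 and cyclins, −2.80 and −2.65 for Mki67 and Top2a, and −2.19 and −2.37 for the passenger complex. They were −2.45 and −1.93 for the mitotic kinases, −2.32 and −2.30 for spindle motors and microtubule proteins, and −2.14 and −2.20 for the kinetochore. For Foxm1 they were −2.04 and −2.17, for the midzone −1.963 and −1.94, and for the checkpoint kinases −1.81 and −1.86. The group of Cdc20, Ube2c, Espl1 and Cdca3 had −1.89 and −1.99.

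Without WT embryo 3 no member's WT log2 fold change or role median moved by more than 0.13. Ube2c still had the largest WT fall, and Cenpa in place of Bub1 the smallest. WT lungs at 10 months then kept a median of 20.3% of the embryonic CPM, from 12.2% for Ube2c to 38.4% for Cenpa. By FPKM Ube2c still ranked first in WT embryos, with a mean of 32.2, and Ttk last, with 1.78.

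**Figure D3:**
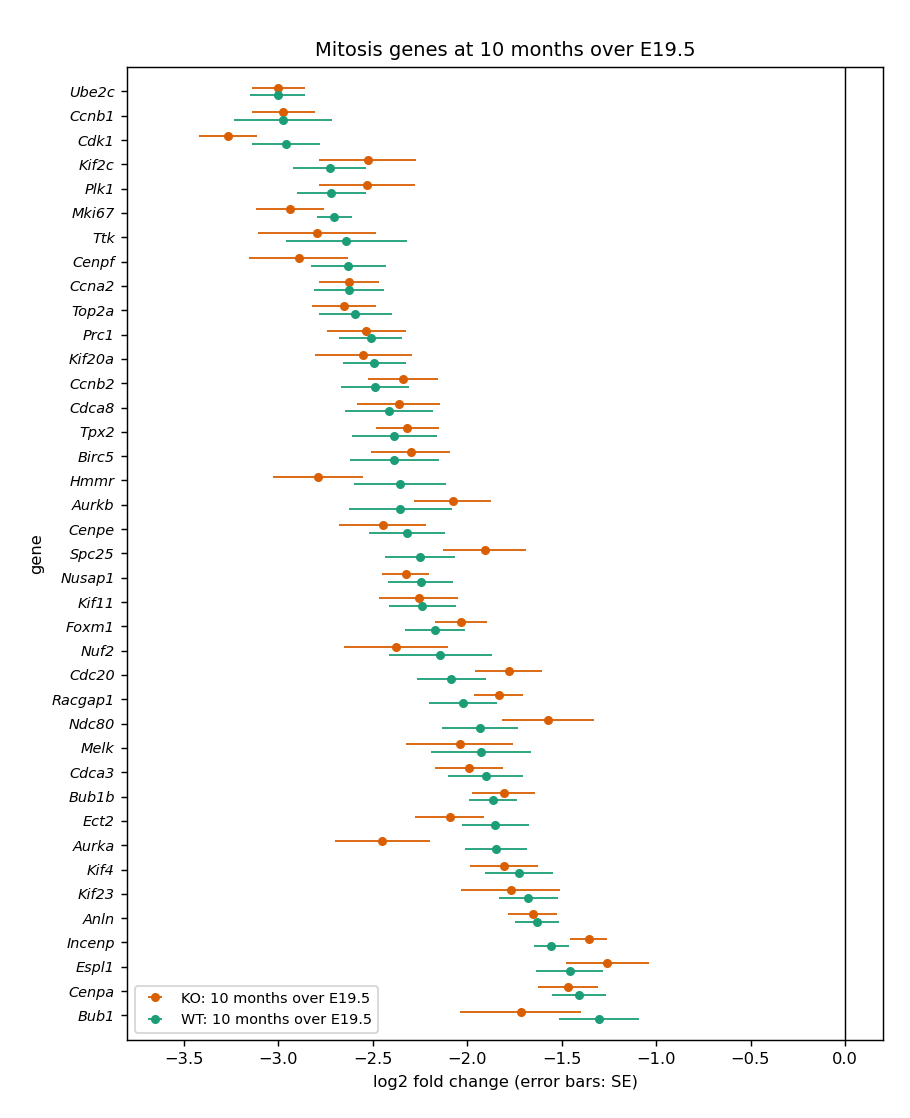
Log2 fold change of each mitosis gene at 10 months over E19.5 (horizontal axis) with its SE. KO is drawn above WT for each gene, and genes are ordered by WT fold change, with the largest fall at the top. All 39 genes lie left of 0 in both genotypes, between −3.27 and −1.26.

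Genes that fell most in KO lungs were also among those that fell most in WT lungs, and these 2 comparisons share no library. Across the 39 genes, which are not independent replicates, Pearson's r of the KO and WT log2 fold changes was 0.897 and Spearman's rho 0.887, given as a description. The largest gap was that of Aurka, the spindle pole kinase, with −2.45 in KO and −1.85 in WT lungs. The test of the difference between the 2 changes called no member and 0.156% of 15994 genes; Aurka, with −0.60 ± 0.31, had the smallest p among members (adjusted p = 0.705). Without WT embryo 3 the test called no member and 0.118% of genes, Aurka had −0.54 ± 0.33, and r and rho were 0.909 and 0.906. Markers of other cells moved over the same ages: the T and NK cell marker level was 2.83 to 2.92 in KO lungs at 10 months, against 0.264 to 0.462 in KO embryos, and all 8 of those markers were called higher at 10 months in each genotype. All 6 B and plasma markers and 5 of 6 macrophage markers were also higher in each genotype. Some other lists were lower at 10 months: 3 of 4 fibroblast markers were called lower in each genotype, with median log2 fold changes of −2.22 in KO and −2.15 in WT lungs, and 3 of 5 erythroid markers in KO and 5 of 5 in WT lungs, with medians of −1.26 and −1.67. Their part in the result was not tested.

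At E19.5 no mitosis gene was called between KO and WT lungs, and neither was any of the 15307 genes tested (0%). At an unadjusted p under 0.05 there were 144 genes (0.941%) and no member. Among members 38 of 39 had a fold change below 0, with a median of −0.16, while 51.2% of all genes were above 0. Spc25, a subunit of the NDC80 complex, had 5.81, 7.22 and 4.45 CPM in KO embryos, against 6.66, 9.33 and 7.07 CPM in WT embryos, a log2 fold change of −0.40 ± 0.21 (adjusted p = 1.00). Its groups overlapped. Ndc80 itself had the smallest p (−0.38 ± 0.18, adjusted p = 1.00), and the checkpoint protein Bub1b, at 0.11, was the exception in sign. The common sign rested on single libraries: 24 members were above 0 without WT embryo 2, 7 without KO embryo 3 and 4 without KO embryo 1, with medians of 0.009, −0.074 and −0.109, while 48.0% to 52.1% of all genes were above 0 with 1 library left out. Without WT embryo 3 the median was −0.162 and 1 member was above 0.

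At 10 months no mitosis gene was called between KO and WT lungs, against 1.52% of 15324 genes. The median fold change of the members was −0.20, and 8 of 39 were above 0, against 49.9% of all genes. It was 13 of 39 without KO lung 2 and 14 of 39 without WT lung 1, with medians of −0.059 and −0.074, and 5 of 39 without KO lung 1 or WT lung 3, while the share of all genes stayed between 49.0% and 50.9%. Aurka had 2.01, 1.22 and 2.51 CPM in KO lungs, against 3.08, 2.68 and 3.28 CPM in WT lungs. Every KO value was below every WT value, which held for 2 members, Aurka and Bub1 (5.13%), against 11.4% of all genes. The log2 fold change of Aurka, −0.66 ± 0.26, missed the threshold (adjusted p = 0.233). It was the 1 member with an unadjusted p under 0.05, against 17.4% of all genes. Bub1 had the lowest fold change, −0.71 ± 0.34 (adjusted p = 0.328), with 3.02, 1.22 and 3.39 CPM in KO lungs, against 3.52, 4.78 and 4.18 CPM in WT lungs. Cdc20, the activator of the anaphase-promoting complex, had the highest, 0.19 ± 0.18 (adjusted p = 0.644). For Nuf2 it was −0.57 ± 0.26 and for Top2a −0.25 ± 0.12 (adjusted p = 0.296 and 0.335).

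At 18 months the sign was the other way, again without a call. No mitosis gene passed the test between KO non-tumour lungs and WT lungs, against 0.0776% of 15463 genes (12 genes). The fold change was above 0 for 38 of 39 members, against 49.5% of all genes, with a median of 0.53, or 1.45 times. An unadjusted p under 0.05 with a higher KO level was reached by 14 members (35.9%), against 4.35% of all genes.

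Birc5, survivin, came nearest to a call. It had 5.01, 2.69, 2.84, 5.65 and 2.44 CPM in KO lungs 1, 2, 3, 6 and 7, against 1.57, 1.604 and 1.49 CPM in WT lungs. All 5 KO lungs lay above all 3 WT lungs, lungs 1 and 6 by the most. Its log2 fold change was 1.25 ± 0.32 (adjusted p = 0.297 by edgeR). DESeq2 gave adjusted p = 0.0238 for the same change, and it called 0.919% of all genes. Plk1, the polo-like kinase, had 3.79, 1.52, 2.29, 5.32 and 3.25 CPM in KO lungs, against 1.33, 1.68 and 1.42 CPM in WT lungs, so that KO lung 2 fell among the WT values; its fold change was 1.12 ± 0.38 (adjusted p = 0.439). Foxm1 and Cenpf had fold changes of 0.58 ± 0.20 and 0.60 ± 0.23 (adjusted p = 0.461 and 0.51). Bub1, at −0.06 ± 0.20 (adjusted p = 0.957), was the only member below 0. In 4 members, Birc5, Cenpf, Tpx2 and Cdca3, the groups did not overlap with KO higher (10.3%), against 3.31% of all genes.

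Single libraries weighed on this difference. The 14 members with an unadjusted p under 0.05 and a higher KO level became 3 without KO lung 1 (4.42% of all genes), 6 without KO lung 6 (3.80% of all genes), 9 without WT lung 2 (2.81%) and 2 without WT lung 3 (2.56%), while the median stayed between 0.359 and 0.716 over all libraries left out in turn. KO lungs 1 and 6 also had the highest levels of T and NK cell markers among the KO lungs, 3.89 and 3.61 on the log2(CPM + 1) scale, against 2.67 to 3.44 in the other KO lungs and 2.66 to 3.18 in WT lungs. Their B and plasma cell marker levels were 5.87 and 5.99, against 4.58 to 5.62 in the other KO lungs and 4.61 to 5.44 in WT lungs. The summed CPM of the 8 T and NK markers was 52.5 to 130 in KO lungs and 51.0 to 74.1 in WT lungs, that of the 6 B and plasma markers was 173 to 956 in KO lungs and 191 to 333 in WT lungs, and none of the markers was at 0 throughout. The macrophage marker level was 6.55, 6.19, 6.24, 5.82 and 5.36 in KO lungs 1, 2, 3, 6 and 7, against 5.48 to 5.73 in WT lungs, so lung 6 was not among the highest. The endothelial level was lowest in KO lungs 1 and 6, 9.06 and 9.01, against 9.16 to 9.58 in the other KO lungs and 9.37 to 9.48 in WT lungs. No marker of these 4 lists was called, and the median log2 fold changes were 0.46 for T and NK cells, 0.38 for B and plasma cells, 0.49 for macrophages and −0.17 for endothelial cells. Their part in the result was not tested.

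The genotype difference of 18 months minus that of 10 months was above 0 for all 39 members, against 52.1% of genes, with a median of 0.78. No member and none of the 15653 genes tested was called (0%); an unadjusted p under 0.05 was reached by 12 members (30.8%), against 2.89% of genes, and by 4 to 18 members when 1 library was left out, with 2.04% to 5.09% of genes. Birc5 had the smallest p, with a difference of 1.42 ± 0.44, followed by Anln with 0.52 ± 0.17, and then by Cenpf with 1.00 ± 0.35 and Top2a with 0.87 ± 0.32; all had an adjusted p of 1.00. Espl1 was the lowest, with 0.10 ± 0.28.

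Set against 10 months, the 18-month lungs of the 2 genotypes stood on different sides of 0, with no call in either. In KO lungs 38 of 39 members were above 0 at 18 months over 10 months, against 50% of all genes, with a median of 0.53, and 0 members and 0% of 15455 genes were called. Mki67 had 25.1, 13.8, 21.7, 27.8 and 18.5 CPM in KO lungs at 18 months, against 13.6, 9.96 and 13.5 CPM at 10 months. The lowest 18-month lung was just above the highest 10-month lung, and the log2 fold change was 0.79 ± 0.22 (adjusted p = 0.893). Top2a and Cenpf had 0.75 ± 0.21 and 0.65 ± 0.26, Birc5 had the largest fold change, 0.88 ± 0.34, and Anln the smallest, −0.00. An unadjusted p under 0.05 was reached by 6 members (15.4%), against 5.06% of genes, and by 2 to 14 when 1 library was left out; it was 2 without KO lung 2 at 10 months (2.06% of genes), or without KO lung 1 or 6 at 18 months (4.81% and 4.79%). The median was then 0.37, 0.363 and 0.446.

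In WT lungs 4 of 39 members were above 0 at 18 months over 10 months, against 49.9% of all genes, with a median of −0.21, and 0 members and 0% of 15321 genes were called. Without WT lung 3 at 18 months 13 members were above 0, and without WT lung 1 at 10 months 8 were, with medians of −0.097 and −0.106, while the share of all genes was 49.2% to 51.2% with 1 library left out. Anln, the scaffold of the cleavage furrow, had 6.40, 5.65 and 5.49 CPM in WT lungs at 18 months, against 7.92, 8.50 and 8.72 CPM at 10 months. The ages did not overlap, and its log2 fold change was −0.52 ± 0.12 (adjusted p = 0.808). Birc5 had −0.55 ± 0.22, Cdk1 −0.42 ± 0.21 and Cdca3 −0.46 ± 0.23. Cenpe was the lowest with −0.56 ± 0.29 and Racgap1 the highest with 0.20 ± 0.16. An unadjusted p under 0.05 was reached by Anln and Birc5, against 5.44% of genes.

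In lung tumours of KO mice 12 of the 39 mitosis genes were called higher than in WT lungs of the same age (30.8%) and none lower, against 7.87% of 15346 genes called higher and 15.4% called in either direction. In 33 members (84.6%) all 3 tumours lay above all 3 WT lungs, against 21.7% of all genes, and the median log2 fold change was 1.10, or 2.15 times. The called members were Kif23, Prc1 and Anln of the midzone and furrow, Plk1, Birc5 and Cdca8, Foxm1, Cdca3, Cenpf, Bub1b, Mki67 and Top2a.

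Plk1 had 5.36, 3.39 and 4.87 CPM in tumours, against 1.33, 1.68 and 1.42 CPM in WT lungs, and its log2 fold change was 1.61 ± 0.25 (adjusted p = 0.014). The lowest tumour was above the highest WT lung. Birc5 had 6.18, 3.59 and 4.08 CPM in tumours, against 1.57, 1.604 and 1.49 CPM in WT lungs (1.56 ± 0.26, adjusted p = 0.0159). Foxm1, the transcription factor of these genes, had 8.74, 7.10 and 9.58 CPM in tumours, against 4.62, 3.57 and 3.12 CPM in WT lungs, with no overlap and a log2 fold change of 1.16 ± 0.22 (adjusted p = 0.0203). Mki67 had 48.4, 21.9 and 35.9 CPM in tumours, against 18.0, 14.2 and 9.46 CPM in WT lungs; the tumours spread more than the WT lungs, and the adjusted p was 0.0447. Cdca3 and Prc1 had log2 fold changes of 1.36 ± 0.27 and 1.25 ± 0.25 (adjusted p = 0.0229 and 0.0244). Ccnb1, cyclin B1, had a log2 fold change of 1.597, as large as that of called members, but missed the threshold (adjusted p = 0.0516). Bub1 was the smallest, −0.12 ± 0.27 (adjusted p = 0.789), with 4.81, 2.76 and 3.06 CPM in tumours, against 3.95, 4.37 and 3.15 CPM in WT lungs.

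By role, the median log2 fold change of tumours over WT lungs was 1.27 for Cdk1 and cyclins, with 0 of 4 called, and 1.24 for Mki67 and Top2a, with 2 of 2 called. It was 1.18 for the passenger complex, 1.13 for the mitotic kinases and 1.07 for the spindle motors and microtubule proteins. It was 0.99 for the kinetochore, 0.98 for the midzone with 3 of 6 called and 0.94 for the checkpoint kinases. The group of Cdc20, Ube2c, Espl1 and Cdca3 had 0.81. The count of 12 depended on single libraries. It was 0 without WT lung 2 or WT lung 3, 2 (Foxm1 and Kif23) without WT lung 1, 6 without tumour 1, 12 without tumour 3 and 23 without tumour 6, while the median stayed between 0.808 and 1.26. The share of all genes called moved with it: it was 0.0708% without WT lung 2 and 0.0193% without WT lung 3, 3.25% without WT lung 1, 12.9% without tumour 1, 10.8% without tumour 3 and 36.9% without tumour 6. DESeq2 called 28 members and 24.4% of genes. The replicate numbers do not pair tumours with WT lungs.

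**Figure D4:**
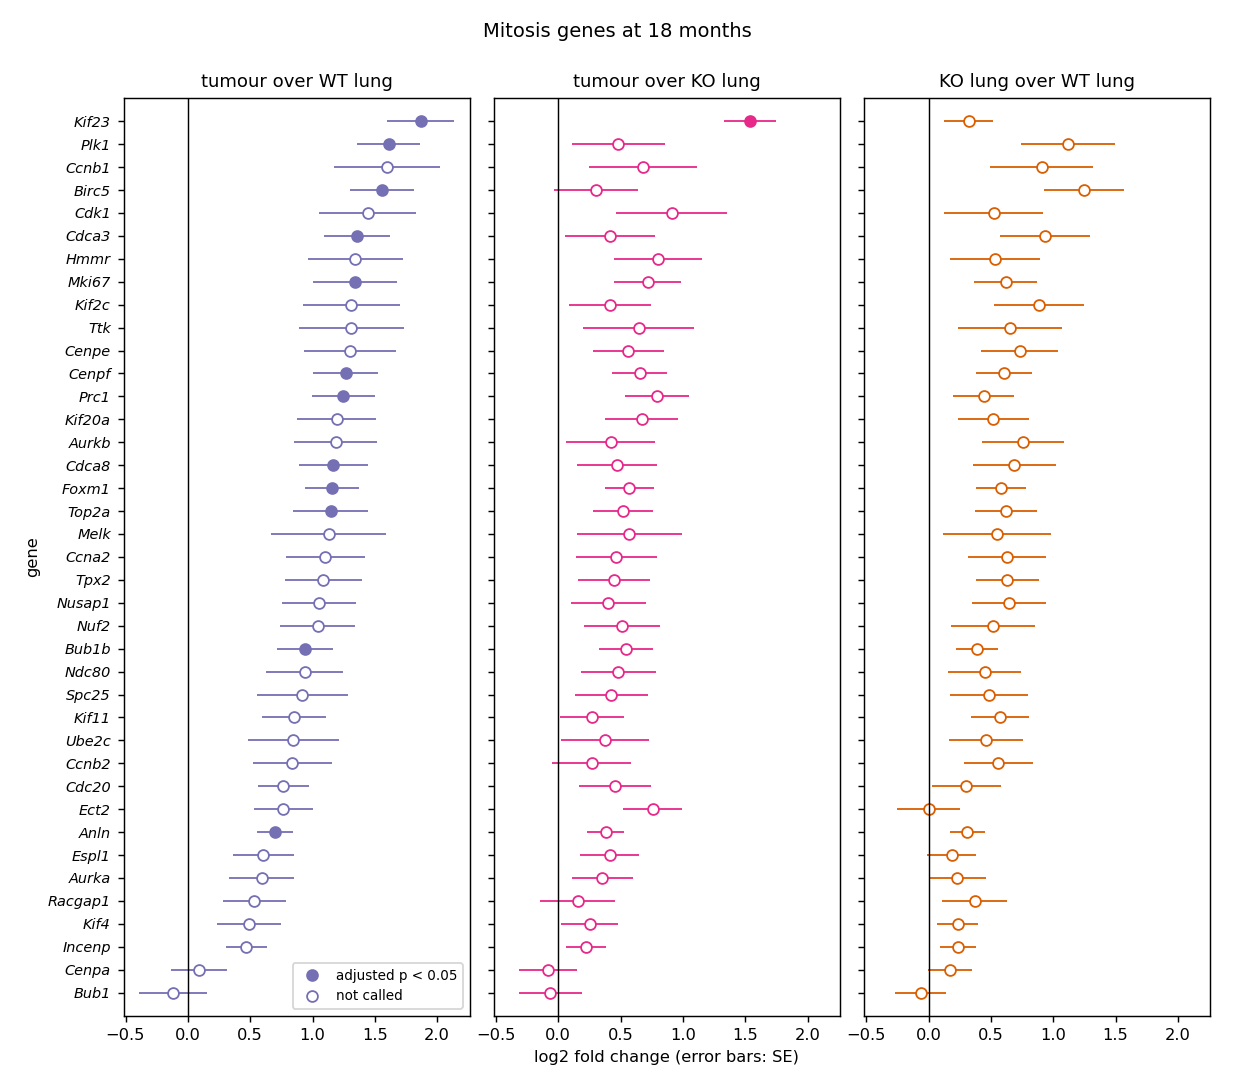
Log2 fold change with SE of each mitosis gene at 18 months in 3 panels, tumour over WT lung, tumour over KO lung and KO lung over WT lung; filled points have an adjusted p under 0.05. The panels have 12, 1 and 0 filled points, and the point in the middle panel is Kif23, at 1.54.

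Against KO non-tumour lungs Kif23 was the 1 member called (2.56%), higher in tumours, against 7.20% of 15459 genes called higher and 13.8% called in either direction. The median log2 fold change of the members was 0.47, and 37 of 39 were above 0, against 49.2% of all genes. An unadjusted p under 0.05 was reached by 10 members (25.6%), all higher in tumours. Of all genes 29.3% reached it in either direction and 14% with a higher tumour level. It was reached by 3 to 14 members when 1 library was left out (21.4% to 37.4% of genes in either direction). In 4 members (Kif23, Cenpf, Ect2 and Anln, 10.3% of the set) all tumours lay above all 5 KO lungs, against 10.5% of genes. The counts of members called and without overlap were at or below the shares of all genes. The count under an unadjusted p of 0.05 was below the share in either direction but above the share higher in tumours. The share of members above 0 was also higher than that of all genes. Prc1, the bundler of midzone microtubules, had 14.2, 10.2 and 8.44 CPM in tumours, against 9.26, 5.07, 5.95, 6.63 and 4.49 CPM in KO lungs, with KO lung 1 above tumour 6 (0.80 ± 0.26, adjusted p = 0.071). Ect2 had 8.53, 6.74 and 5.97 CPM in tumours, against 5.90, 3.08, 3.70, 4.26 and 3.91 CPM in KO lungs (0.76 ± 0.23, adjusted p = 0.0611). Cenpa was the lowest, −0.08 ± 0.23 (adjusted p = 0.849). Leaving out 1 library gave 1 to 4 calls: 3 without KO lung 1 (8.66% of all genes), 2 without tumour 3 (6.87%) and 4 without tumour 6 (25.9%). DESeq2 called 6 members, Anln, Cenpf, Ect2, Foxm1, Kif23 and Prc1, and 20.5% of genes.

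Within single mice the tumours varied. In animal 1 all 39 members were higher in the tumour than in the lung, with a median log2 ratio of 0.486. In animal 3 it was 34 of 39, with a median of 0.366, and in animal 6 it was 17 of 39, with a median of −0.039. Kif23 had the largest ratio of all members in each of the 3 animals: 2.56 times in animal 1, 3.67 times in animal 3 and 1.88 times in animal 6. In all, 17 of 39 members were higher in the tumour in each of the 3 animals and none was lower in each. No share of all genes was taken within animals, so these counts are a description only. Among the 17 Ect2 had log2 ratios of 0.523, 0.844 and 0.475 in animals 1, 3 and 6, Foxm1 0.284, 0.513 and 0.622, and Prc1 0.613, 0.767 and 0.342. Racgap1 had the smallest ratio in animals 1 and 3, 0.063 and −0.387 on the log2 scale, and Ube2c in animal 6, −0.749. With the animal as a block, which leaves 6 libraries, no member was called and Kif23 had a log2 fold change of 1.38 (adjusted p = 0.0681); the same 6 libraries without the block gave 1 call, Kif23, at 1.41.

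Kif23, the motor subunit of centralspindlin, set itself apart from the other members in tumours. It had 16.7, 19.9 and 11.5 CPM in tumours 1, 3 and 6 (16.01 ± 4.26, SD, n = 3), then 6.51, 4.17, 5.42, 6.10 and 5.23 CPM in KO lungs (5.49 ± 0.897, n = 5), and 5.32, 4.37 and 3.40 CPM in WT lungs at 18 months (4.36 ± 0.959, n = 3). The lowest tumour was well above the highest lung. Its log2 fold change was 1.54 ± 0.21 over KO lungs (adjusted p = 0.00318, or 2.91 times), with adjusted p between 0.000655 and 0.0129 when 1 library was left out. Over WT lungs it was 1.87 ± 0.27 (adjusted p = 0.0126), and the adjusted p was 0.0737 without WT lung 2 and 0.0772 without WT lung 3.

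The rank of Kif23 among the 39 members by mean FPKM was 5 in tumours, 18 in KO lungs and 15 in WT lungs at 18 months, and 26 in embryos of either genotype. In the single tumours 1, 3 and 6 it was 12, 1 and 10. In tumour 3 the median of the other 38 members was 4.56 CPM, the lowest of the 3 tumours, against 19.9 CPM for Kif23, the highest. Its partner Racgap1 was not called: it had 16.1, 8.52 and 11.4 CPM in tumours, against 15.4, 5.96, 11.2, 12 and 9.10 CPM in KO lungs, and its fold change was 0.16 ± 0.30 (adjusted p = 0.776). The Kif23 to Racgap1 ratio of CPM was 1.03, 2.34 and 1.00 in tumours, 0.421 to 0.699 in KO lungs at 18 months and 0.372 to 0.755 in the other libraries. Kif23 lies on chr9:61915905-61946774 of GRCm38, minus strand, and no exon of another annotated gene overlaps its exons. Its counts in tumours were 488, 505 and 292. The mean log2(CPM + 1) of the set without Kif23 was 3.21, 2.56 and 2.71 in tumours 1, 3 and 6.

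**Figure D5:**
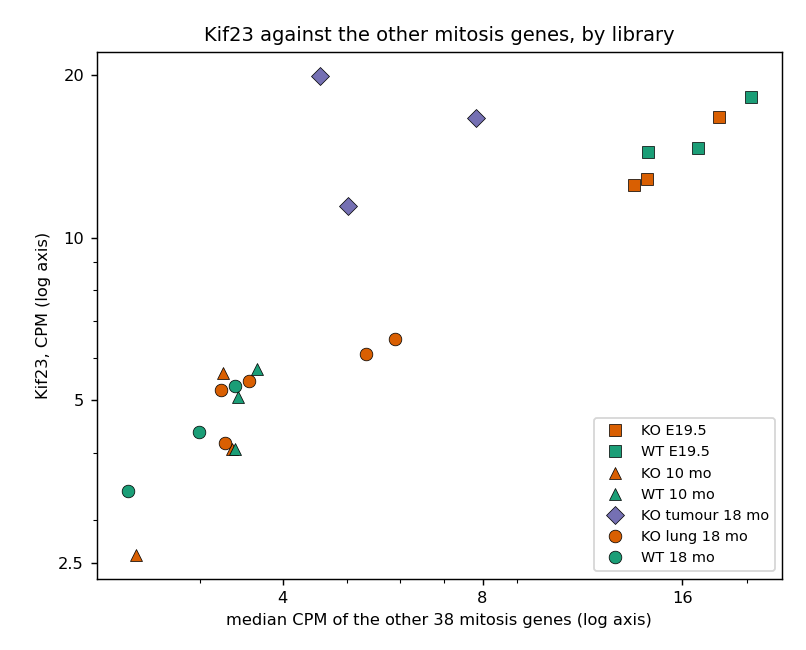
Kif23 CPM (vertical log axis) against the median CPM of the other 38 mitosis genes (horizontal log axis) in each of 23 libraries. Colour shows KO lung, WT lung or tumour, and marker shape shows age, with its own shape for tumours. The 3 tumours, at 11.5 to 19.9 CPM, lie above the band of lungs and embryos, and tumour 3 lies farthest from it.

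Markers of several cell types differed between tumours and KO lungs. The alveolar type 2 marker level was 12.1 to 13.0 on the log2(CPM + 1) scale in tumours, 10.8 to 11.3 in KO lungs and 11.1 to 11.2 in WT lungs at 18 months, and 5 of 5 markers were called higher over KO lungs, with a median log2 fold change of 1.37. The macrophage marker level was 6.33 to 7.54 in tumours, 5.36 to 6.55 in KO lungs and 5.48 to 5.73 in WT lungs, with 2 of 6 called higher over KO lungs. The summed CPM of the macrophage markers was 2060 to 12838 in tumours, 666 to 1796 in KO lungs and 759 to 832 in WT lungs. No marker of either list was at 0 in a whole group. Other lists were lower in tumours than in KO lungs: 3 of 3 club cell and 3 of 3 ciliated cell markers were called lower, with median log2 fold changes of −1.74 and −1.26, and 1 of 5 erythroid, 1 of 4 endothelial, 1 of 4 type 1 and 1 of 4 fibroblast markers, with medians of −1.20, −0.88, −0.84 and −0.47. No T, NK, B or plasma cell marker was called. Their part in the result was not tested.

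Most mitosis genes were lower in tumours than in embryonic lung. Of the 39 members 35 (89.7%) were called lower in tumours than in KO embryos, against 18.0% of 15543 genes called lower and 38.2% called in either direction, with a median log2 fold change of −1.27, or 2.41 times lower. Tumours held a median of 41.4% of the CPM of KO embryos, against 29.2% in KO lungs at 18 months. The lowest share was 24.2%, for Ube2c (−2.04 ± 0.33, adjusted p = 0.00387), and the highest was 114%, for Kif23 (0.19 ± 0.23, adjusted p = 0.558), the only member above 0. Anln had 10.2, 8.76 and 9.62 CPM in tumours, against 20.8, 26.4 and 21.5 CPM in KO embryos, and its fall had the smallest adjusted p (−1.26 ± 0.15, 0.00142). Foxm1 fell by 1.22 ± 0.18, Cenpf by 1.58 ± 0.23, Cdca8 by 1.35 ± 0.21 and Aurka by 1.52 ± 0.24. Melk, Ndc80 and Espl1 were not called (adjusted p = 0.0819, 0.0711 and 0.152).

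Other genes of the cell cycle were read from lists. Of 87 further mitosis genes 18 (20.7%) were called higher and 1 lower in tumours than in WT lungs, against 7.87% of all genes called higher, with a median log2 fold change of 0.76. Over KO lungs 4 (4.60%) were called higher and 1 lower, a smaller share than the 7.20% of all genes called higher, with a median of 0.40. Over KO lungs these were Psrc1, a microtubule regulator, with 2.66 ± 0.36 (adjusted p = 0.00318), Arhgap11a, a GTPase-activating protein for RhoA, with 0.91 ± 0.18 (adjusted p = 0.0127), and Iqgap3 and Stil; Pttg1, securin, was lower (−0.62 ± 0.11, adjusted p = 0.00807). Psrc1 averaged 12.9 ± 6.03 CPM in tumours (SD, n = 3), 2.05 ± 0.732 CPM in KO lungs (n = 5) and 1.39 ± 0.107 CPM in WT lungs (n = 3). Of 44 DNA replication genes none was called between tumours and KO lungs (median 0.21, against 13.8% of all genes called), and 9 of 43 tested (20.9%) were higher in tumours than in WT lungs (median 0.44, against 7.87% of all genes), among them Chaf1b, Mcm10 and Uhrf1. Of 13 genes of G1 cyclins, their kinases and E2F factors, Ccnd1, cyclin D1, and E2f3 were higher in tumours than in KO lungs (15.4%, against 7.20% of all genes); Ccnd1 averaged 648 ± 142 CPM in tumours, 281 ± 33.8 CPM in KO lungs and 294 ± 14.7 CPM in WT lungs (1.21 ± 0.17 over KO lungs, adjusted p = 0.00323).

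Among 8 CDK inhibitors and pocket proteins, Cdkn2a and Cdkn1a were higher in tumours than in KO lungs and Cdkn1c was lower (2.31, 1.11 and −0.90 on the log2 scale; adjusted p = 0.0119, 0.0177 and 0.00475). Cdkn2a averaged 7.89 ± 4.67 CPM in tumours, 1.59 ± 0.594 CPM in KO lungs and 0.815 ± 0.423 CPM in WT lungs. Of 12 DREAM and MYB-MuvB subunits, Lin52 was lower in tumours than in KO lungs (−0.50). Between KO and WT lungs no gene of the 5 lists was called at E19.5 or 18 months, and 2 were called at 10 months. Wee1, the kinase that restrains Cdk1, was higher in KO lungs, with 25.4 ± 3.86 CPM in KO and 12.7 ± 0.239 CPM in WT lungs (SD, n = 3 each; log2 fold change 1.00 ± 0.12, adjusted p = 0.00415), and Cdkn1a, p21, was lower (−1.06 ± 0.10, adjusted p = 0.00227). Between 10 months and E19.5 in WT lungs, 78 of the 87 further mitosis genes fell (89.7%, against 31.2% of all genes) and 2 rose. Their median was −1.73, led by Cdc25b, Ncapd2 and Ccnf. Of 44 replication genes 33 fell (75.0%) and none rose, with a median of −0.68, led by Clspn, Dbf4 and Cdt1. These WT counts include WT embryo 3. In KO lungs 73 of the 87 fell (83.9%, against 29.4% of all genes) and 3 rose, with a median of −1.58. Of the 44 replication genes 22 (50%) fell in KO lungs and 1 rose, with a median of −0.485. The test of the difference between the KO and WT changes called 0 of the 44, against 0.156% of all genes. In it 39 of the 44 were above 0, against 52.1% of all genes, with a median of 0.271. That test also includes WT embryo 3.

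The strand used in counting is not given in the sources used here. Exons of 8 members overlap an exon of a gene on the other strand that is also in the table, so reads of the pair could be mixed: Ccna2 with Exosc9, Cdc20 with Elovl1, Cdca8 with 9930104L06Rik, Kif20a with Cdc23, Kif4 with Pdzd11, Nusap1 with Oip5, Prc1 with Rccd1 and Ube2c with Tnnc2. Their values are uncertain to that extent. Another 3 members overlap only genes that the table does not list, whose reads could have been counted to them: Plk1 with Gm44985 on the other strand, and Foxm1 with Tex52 and Gm44596 and Top2a with Gm23451 on the same strand. The other 28 members, Kif23 and Birc5 among them, overlap no annotated exon of another gene.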

How the data were processed

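Bulk RNA was sequenced from 23 lung and tumour libraries in 7 groups. The deposited expected counts per gene were made by the authors with RSEM 1.3.0 after Trimmomatic 0.36 and STAR 2.5.2b on build mm10, per the submitters' processing notes. The deposited FPKM values were also made by the authors, scaled by gene length and depth; they were used here to compare levels between genes. All columns of both tables were used.

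The members, gene lists and alternatives were chosen with earlier results of these data known. After rounding the expected counts to integers, edgeR 4.0.16 (R 4.3.3) was run separately for each comparison, on the libraries of its groups alone, with filterByExpr, TMM factors and the robust quasi-likelihood F test. Adjusted p refers to this test with Benjamini-Hochberg adjustment over all genes tested, except where DESeq2 is named, and a call means an adjusted p under 0.05. All 39 members passed the filter on low counts in every comparison. Fold changes are log2 with a prior count of 0.125, and the standard error (SE) was derived as |log2 fold change| / sqrt(F). Differences between genotype effects were tested as interactions. CPM were scaled by TMM over all libraries and scaled to 1e6 counts. The fits were tested on simulated counts. Alternatives were DESeq2 1.42.0, RLE scaling, no filter, all libraries in the fit, limma 3.58.1 on log2(FPKM + 1) and log2(FPKM + 0.1), a replicate block and each library left out; the block's libraries without the block and the set without Kif23 were added after seeing the data.

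Members named with values in a comparison were up to 6 called with the smallest adjusted p, those with the largest and smallest fold change, and up to 4 with the smallest p where none was called; up to 3 genes of each list were named. Other members were named after their values were seen. Tumours 1, 3 and 6 and KO lungs 1, 3 and 6 share animal codes and are read as pairs; the correlations of their deviations from group means were 0.465, 0.00494 and 0.0588, over genes with a mean CPM of at least 1, and tumour 1 correlated best with its own lung, tumour 3 with lung 2 and tumour 6 with lung 7. Within-group pairs of libraries, 28 in all, had a chi-square per degree of freedom of 6.72 to 228, so none was a copy of another. Depth limits low members most: the lowest count was 9.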

Additional observations from a re-analysis of the deposited data

Results flagged for a closer look

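Kif2c, a microtubule-depolymerising kinesin, had 3.75 CPM in KO non-tumour lung 1 at 18 months, against 1.61 to 2.17 CPM in KO lungs 2, 3, 6 and 7. Its gap to the nearest of the others was 0.738 of the range of the 5 lungs. The 39 members were examined in this way in the 1 group of 5 libraries, and about 1 in 20 such examinations is picked by chance.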

How the results depend on the processing

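All 39 members were called lower at 10 months than at E19.5 in both genotypes under every alternative run, and no member was called between KO and WT lungs at E19.5 or 10 months, between the ages 18 and 10 months or in the interactions. Between KO and WT lungs at 18 months DESeq2 called 1 member, Birc5, and 0.919% of all genes. Between tumours and KO lungs 6 were called by DESeq2, 9 with all 23 libraries in the fit (31.7% of all genes), and 1 to 4 with 1 library left out (6.87% to 25.9% of all genes). Between tumours and WT lungs 28 were called by DESeq2, 33 with all 23 libraries (33.3% of all genes) and 0 to 23 with 1 library left out (0.0193% to 36.9%). Between tumours and KO embryos 27 to 37 were called with 1 library left out (24.3% to 47.3%). The change in mean log2 level from E19.5 to 10 months was −1.573 in KO and −1.617 in WT on log2(FPKM + 1). On log2(CPM + 0.1), another unit as well as another pseudocount, it was −2.213 in KO and −2.165 in WT.

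With the replicate block 0 members (0.883% of all genes) were called between tumours and KO lungs, paired by animal. The numbers do not pair other groups; the block then gave 6 calls between tumours and WT lungs (11.2% of all genes), and the same libraries without the block 6 (20.8%). Between tumours and KO embryos those libraries without the block gave 19 (33.6%).

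Of 998 values of named genes under an alternative, 968 were counted as keeping their direction and side of the threshold. A further 22 lost the call, 1 gained it and 7 were counted as turning sign, all 7 near 0. Anln between 18 and 10 months in KO lungs, at −0.002, also changed sign but was counted among the 968. It ranged over −0.064 to 0.065 with 1 library left out. Bub1 between tumours and WT lungs was 0.054 with the replicate block, 0.095 in those libraries without it, and −0.392 to 0.023 with 1 library left out. Bub1 between KO and WT lungs at 18 months ranged over −0.187 to 0.044, Cenpa between tumours and KO lungs over −0.298 to 0.069, and Espl1 in the 18-month minus 10-month difference over −0.006 to 0.310. The cause was not tested. In tumours over WT lungs Plk1, Birc5, Cdca3 and Prc1 lost their call without any 1 WT lung.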
